A study of Mus musculus with 12 samples.

Results

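The mitochondrial genome is a small circular DNA, and its 37 genes are the subject here: all table entries whose mouse symbol begins with mt-. They comprise 13 genes for proteins of the respiratory chain, 2 for ribosomal RNAs and 22 for transfer RNAs, out of 54232 genes in the count table. Membership was set by name alone, with no measured value. The 13 mRNAs and both rRNAs had counts. Among the tRNAs, mt-Tp alone had counts, and the other 21 were at 0 in all 12 libraries, so 16 of 37 members were measured. A total of 13253814 counts fell on them, of which 11660973 were on the mRNAs, 1592491 on the rRNAs and 350 on the tRNA. The filter on low counts left 15 members for testing, and mt-Nd4l, with 78 counts over all libraries, did not pass it.

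Mitochondrial DNA is transcribed from both strands into long precursors that are cut at the tRNAs, which lie between most of the mRNAs and rRNAs. The mRNAs are then given poly(A) tails, and in human cells the mRNA of ND6, the single one on the light strand, is known to lack a long tail. The proteins are subunits of complexes I, III and IV and of the ATP synthase, whose remaining subunits are encoded in the nucleus. In the retina these complexes supply ATP to photoreceptors and to ganglion cells, whose long unmyelinated axon segments are rich in mitochondria.

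The study compared 4 groups, each with 3 libraries of cells picked from the retina of wild-type adult males: AAV-Olig1 at day 7 after optic nerve crush, AAV-GFP at day 7, AAV-Olig1 at day 14 and AAV-GFP at day 14. All mice had received an AAV2 into the vitreous and the crush, which injures the axons of ganglion cells, so no group is uninjured or free of virus. Olig1 is a transcription factor of the oligodendrocyte lineage. The labels give a virus time of 14 days for both days after crush, name no promoter, give pools within 10 to 20 picked cells and do not say whether libraries came from separate animals. The p-values therefore reflect library-to-library spread that could be technical.

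Total counts per library ran from 12534515 to 27602459, and 10129 to 17244 genes were detected. Olig1 stood at 1029, 249 and 723 CPM (counts scaled to a library total of 1000000) in Olig1 day 7 libraries and between 0 and 0.351 CPM in GFP day 7 libraries. At day 14 it stood at 56.4, 519.8 and 120.1 CPM in Olig1 libraries and between 0 and 0.251 CPM in GFP libraries. The labelled cell type, retinal ganglion cell, was unevenly borne out by its markers. The summed level of 15 ganglion cell markers was 3286 to 4918 CPM in Olig1 day 7 libraries, 71.1 to 312 in GFP day 7, 207 to 3783 in Olig1 day 14 and 98.1 to 247 in GFP day 14. Of the 15, 14 were detected in Olig1 day 7 libraries, 10 to 11 in GFP day 7, 11 to 14 in Olig1 day 14 and 7 to 11 in GFP day 14. Of the defining markers, Pou4f2 was at 0 in all GFP libraries, and Slc17a6 was at 0 in 5 of the 6. Pou4f2 was also at 0 in Olig1 day 14 replicates 1 and 2, and Slc17a6 in Olig1 day 14 replicate 1. Pou4f1 stood at 2.88, 0.239 and 0.338 CPM in Olig1 day 7 libraries and at 0, 4.56 and 0.0532 CPM in Olig1 day 14 libraries. In GFP it had 2 counts in day 7 replicate 3 and 0 in the other libraries. Rbpms had counts in every GFP library, but only 1 count in GFP day 7 replicate 1 and 1 in GFP day 14 replicate 1. It stood at 76.0 CPM in GFP day 7 replicate 2, and at 55.1, 568 and 60.3 CPM in Olig1 day 7 libraries. Rod markers summed to 594 to 1281 CPM in Olig1 day 7 libraries, 12404 to 57743 in GFP day 7, 1111 to 12606 in Olig1 day 14 and 4419 to 52667 in GFP day 14. Of 10 marker lists, 6 did not overlap between Olig1 and GFP at day 7: ganglion and amacrine cell markers were higher in Olig1, and rod, cone, bipolar cell and astrocyte markers were lower. Amacrine cell markers summed to 1281 to 3107 CPM in Olig1 day 7 and 285 to 651 in GFP day 7, and bipolar cell markers to 235 to 516 CPM in Olig1 day 7 and 1141 to 2050 in GFP day 7. Cone markers summed to 9.73 to 23.2 CPM in Olig1 day 7 and 113 to 1095 in GFP day 7, and astrocyte markers to 14.3 to 40.3 CPM in Olig1 day 7 and 56.0 to 354 in GFP day 7. At day 14, 2 lists did not overlap, both lower in Olig1: bipolar cell markers with 203 to 451 CPM in Olig1 and 1394 to 5407 in GFP, and microglia and macrophage markers with 3.75 to 17.1 CPM in Olig1 and 25.2 to 9606 in GFP. Between Olig1 day 14 and Olig1 day 7 libraries 2 lists did not overlap: microglia and macrophage markers were lower at day 14, with 27.0 to 1476 CPM at day 7, and B and plasma cell markers were higher, with 23.1 to 28.8 CPM at day 14 and 2.77 to 20.8 at day 7. Between the GFP days 0 of 10 lists were without overlap. Müller glia markers lay between 42256 and 120302 CPM in all libraries, and B and plasma cell markers reached 132526 CPM in GFP day 14 replicate 3. Their part in the values below was not tested, and in pooled cells fewer cells of a type and less RNA per cell cannot be told apart.

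Members with the lowest levels included those whose sequence also stands in the nuclear genome, so the sequences come first. A nuclear insertion of mitochondrial DNA is annotated on chromosome 1 as a row of pseudogenes (chr1:24611535-24616197, minus strand, GRCm38), 4663 bases that hold 7 copies in the same order as the mitochondrial genes. The first 60 bases of mt-Co2 (cytochrome c oxidase subunit 2; chrM:7013-7696, plus strand) and of its copy Gm28661 (chr1:24614885-24615565) are shown because they do not differ at any base, and no capitals are needed.
mt-Co2: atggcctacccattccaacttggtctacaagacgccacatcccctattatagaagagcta
Gm28661: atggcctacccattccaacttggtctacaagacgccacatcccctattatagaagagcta
The first 60 bases of mt-Nd3 (NADH dehydrogenase subunit 3; chrM:9459-9806, plus strand) and its copy Gm28438 (chr1:24612775-24613119) are shown with their single difference in capitals.
mt-Nd3: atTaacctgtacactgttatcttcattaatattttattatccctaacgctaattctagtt
Gm28438: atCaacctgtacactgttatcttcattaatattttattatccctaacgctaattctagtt
The difference is T3C, counted from 1 at the 5′ end of the member, with the member's base first. Bases 1054 to 1113 of mt-Co1 (cytochrome c oxidase subunit 1; chrM:5328-6872, plus strand), where the copy Gm29216 (chr1:24615706-24616197) begins, are shown because they hold all differences between the pair, in capitals.
mt-Co1: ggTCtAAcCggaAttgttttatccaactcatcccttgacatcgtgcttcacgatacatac
Gm29216: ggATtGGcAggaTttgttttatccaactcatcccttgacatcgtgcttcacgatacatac
These 6 differences are T1056A, C1057T, A1059G, A1060G, C1062A and A1066T, and the rest of the 492 aligned bases is identical. Over their whole aligned lengths, mt-Co2 and Gm28661 (681 bases), mt-Atp6 and Gm10925 (678), mt-Co3 and Gm28437 (783), mt-Nd4l and Gm10222 (294) and mt-Nd4 and Gm28439 (876) had 0 differences. A read from such a stretch cannot be assigned to either locus by its sequence. The sequences are GENCODE M21 transcripts on GRCm38. No nuclear genome sequence was used, so copies outside annotated transcripts are not counted.

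The share of each member's 100-base windows that occurs exactly in an annotated nuclear transcript divided the 15 mRNAs and rRNAs into 3 sets. It was 97.6% to 99.9% for mt-Co3, mt-Atp6, mt-Co2, mt-Nd3 and mt-Nd4l. It was 60.8% for mt-Nd4, 30.8% for mt-Co1 and 3.19% for mt-Nd2. It was 0% for mt-Cytb, mt-Nd1, mt-Nd5, mt-Nd6, mt-Atp8, mt-Rnr1 and mt-Rnr2.

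Levels per kilobase of transcript differed by orders of magnitude among members although the genome is transcribed as long precursors. mt-Cytb, cytochrome b of complex III, averaged 23553 CPM per kilobase over the 12 libraries, and mt-Nd1, a core subunit of complex I, averaged 9566. The 16S rRNA mt-Rnr2 averaged 4184, mt-Co1 3791, mt-Nd4 2220 and mt-Nd2 2024 CPM per kilobase. Below these came mt-Nd6 with 693, the 12S rRNA mt-Rnr1 with 525 and mt-Nd5 with 352 CPM per kilobase. The lowest were mt-Co3 with 331, mt-Atp6 with 160.1, mt-Co2 with 135, mt-Nd3 with 27.3, mt-Atp8 with 17.7 and mt-Nd4l with 1.15 CPM per kilobase. The order held in most libraries: mt-Cytb lay above mt-Nd1 in 11 of 12, mt-Nd1 above mt-Rnr2 in 12, mt-Co1 above mt-Nd4 in 10 and mt-Nd2 above mt-Nd6 in 12. Neighbours that did not separate were mt-Rnr2 and mt-Co1 (7 of 12), mt-Nd5 and mt-Co3 (7 of 12) and mt-Atp6 and mt-Co2 (8 of 12). mt-Cytb ranked among the 10 genes with the most counts in 11 libraries, was first in 1 of them, and held 25.2% to 59.8% of all member counts.

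**Figure D1:**
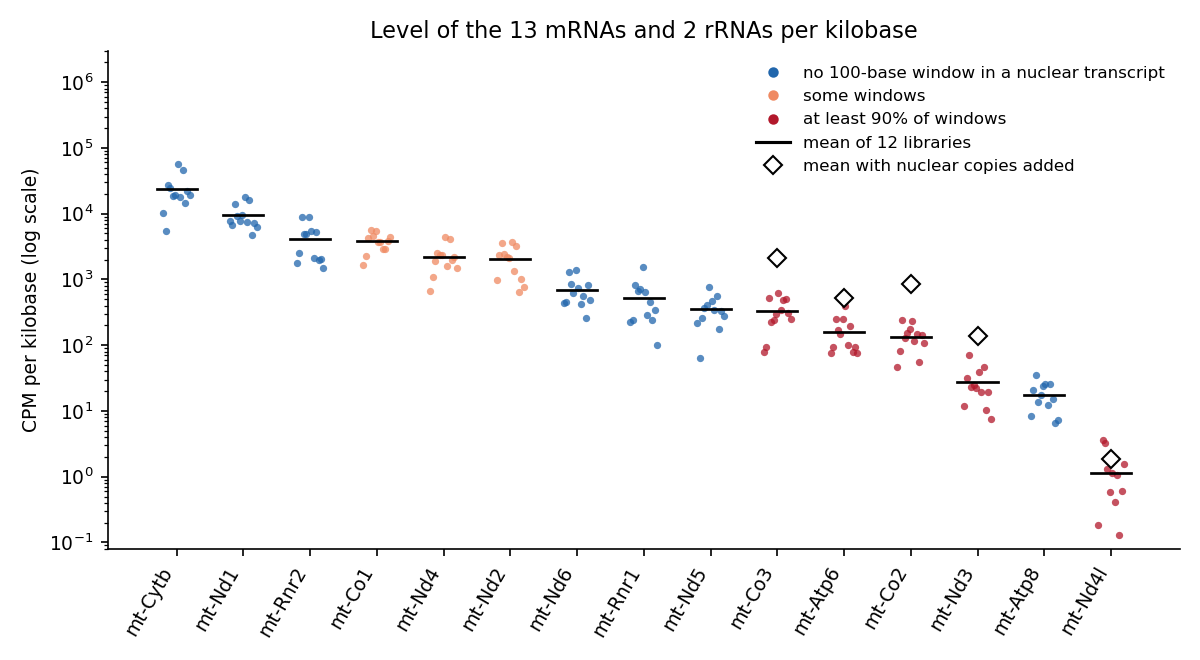
Level of each mRNA and rRNA in CPM per kilobase (log axis); points are the 12 libraries, lines their mean, colours the share of 100-base windows found in nuclear transcripts, and diamonds the mean with the counts of the nuclear copies added, drawn where that raised it over 1.5-fold. The 5 members with at least 90% of windows shared lie between 1.15 and 331 CPM per kilobase, and libraries at 0 are not drawn for mt-Nd4l.

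The 5 members with nearly complete nuclear copies had 1.15 to 331 CPM per kilobase (median 135), the 3 with partial copies 2024 to 3791, and the 7 without 17.7 to 23553 (median 693). mt-Atp8, without an annotated copy, was also low. It overlaps mt-Atp6 by 43 bases, and on chromosome 1 the stretch that corresponds in position, chr1:24614652-24614884 between Gm10925 and Gm28661, is 233 bases long, like the stretch between the copied parts of mt-Co2 and mt-Atp6 on the mitochondrial genome (chrM:7694-7926). That stretch carries no annotated transcript and was not analysed here. The bicistronic mRNA of mt-Nd4l and mt-Nd4, whose genes share 7 bases, gave 78 counts to mt-Nd4l and 741543 to mt-Nd4. The lone light-strand mRNA, mt-Nd6, had 224, 231 and 674 CPM in Olig1 day 7 libraries, 438, 320.0 and 712 in GFP day 7, 384, 221 and 292 in Olig1 day 14 and 135, 429 and 253 in GFP day 14. Its reads cannot be told apart from antisense RNA of the other strand, because the strand setting of the counting is not given in the sources used here.

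Reads were also counted on the copies. Of 15 nuclear pseudogenes with at least 90% identity to a member over at least 200 bases, 12 had counts and 3 had none. They held 644434 counts in all, of which 616666 lay on the 7 copies of chromosome 1. Gm28661 held 81.3% to 88.5% of the counts of itself and mt-Co2, Gm28437 held 75.3% to 91.6% with mt-Co3, Gm28438 held 67.7% to 87.6% with mt-Nd3 and Gm10925 held 55.8% to 80.3% with mt-Atp6. For these 4 pairs the copy had more counts than the member in 12 of 12 libraries. For example, Gm28661 had 2623, 5486 and 10485 counts in Olig1 day 7 libraries, where mt-Co2 had 576, 710 and 2419, and it had 7126, 9412 and 11358 counts in GFP day 7 libraries, where mt-Co2 had 1625, 1881 and 2049. For the members with some windows in nuclear transcripts, the main copies took less. Gm29216 held 4.22% to 10.98% with mt-Co1, Gm13339 2.67% to 7.57% with mt-Nd2 and Gm28439 0.255% to 0.760% with mt-Nd4. Summing copies into members raised mt-Co3 to 2122, mt-Co2 to 863, mt-Atp6 to 524 and mt-Nd3 to 137 CPM per kilobase. The level of these 4 genes and of mt-Nd4l is therefore uncertain, as is that of mt-Nd4, mt-Co1 and mt-Nd2 in their copied stretches. The copies amounted to 2.69% to 7.30% of member counts in each library. Reads left out of the counting because they match both loci would be in neither count, and the treatment of such reads is not given.

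**Figure D2:**
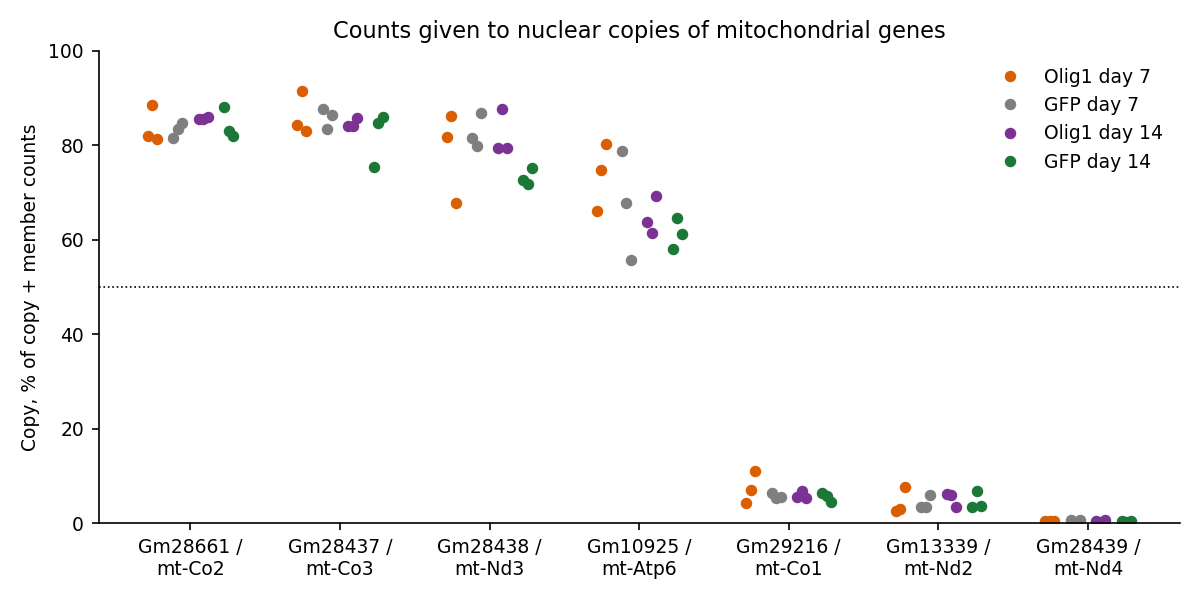
Counts on 7 nuclear copies as a percentage of the counts of copy and member together, 1 point per library, coloured by group; the dotted line marks equal counts. The copies of mt-Co2, mt-Co3, mt-Nd3 and mt-Atp6 lie above the line in all 12 libraries and those of mt-Co1, mt-Nd2 and mt-Nd4 lie at or below 10.98%.

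The tRNAs were nearly absent from these poly(A)-primed libraries. mt-Tp, the light-strand tRNA for proline (chrM:15356-15422, minus strand), had 31, 9 and 50 counts in Olig1 day 7 libraries, 0, 18 and 61 in GFP day 7, 15, 47 and 34 in Olig1 day 14 and 49, 27 and 9 in GFP day 14. Its neighbour mt-Tt, the heavy-strand tRNA for threonine (chrM:15289-15355, plus strand), lies between mt-Cytb and mt-Tp, is equally 67 bases long and had 0 counts in every library. As for mt-Nd6, reads on mt-Tp cannot be told apart from RNA of the other strand, because the strand setting is not given. The sequences of mt-Tp and mt-Tt are shown as the tRNA gene with counts and its neighbour without, with no part marked.
mt-Tp: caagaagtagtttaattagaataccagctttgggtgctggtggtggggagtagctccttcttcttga
mt-Tt: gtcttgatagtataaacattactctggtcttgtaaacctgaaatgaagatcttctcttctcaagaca
A count of 0 allows up to 3 counts per library, by counting error alone.

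The share of all counts that fell on the 37 members was 2.74%, 2.51% and 7.45% in Olig1 day 7 libraries, against 6.16%, 5.11% and 6.34% in GFP day 7 libraries. At day 14 it was 10.9%, 4.17% and 9.30% in Olig1 libraries, against 3.34%, 4.68% and 4.12% in GFP libraries. The half-width of the 95% Wilson interval was at most 0.0135 percentage points and covers counting error only. Olig1 libraries were spread widely at both days and overlapped with GFP libraries at both. In this share the 3 GFP day 14 libraries all lay below the 3 GFP day 7 libraries. That separation depends on the measure. For the mRNAs alone, GFP day 14 replicate 2 had 4.33% and GFP day 7 replicate 2 had 4.27%. Over counts of protein-coding genes, GFP day 14 replicate 3 had 4.55% and GFP day 7 replicate 2 had 4.51%. With either measure the GFP days overlapped, unlike with the share of all 37 members, to which the means below belong. The mean share was 4.23% ± 2.78 in Olig1 and 5.87% ± 0.668 in GFP at day 7, a ratio of 0.721, and 8.13% ± 3.53 in Olig1 and 4.05% ± 0.673 in GFP at day 14, a ratio of 2.01 (SD, n = 3 each).

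Single libraries weighed on these ratios. Without Olig1 day 7 replicate 3 the day 7 ratio was 0.448, and the ratio of Olig1 day 14 to Olig1 day 7, 1.92 with all libraries, was 3.10. In Olig1 day 14 the library with the low share, replicate 2, had ganglion cell markers of 3783 CPM, while replicates 1 and 3 had 249.7 and 207 CPM. Within Olig1 day 7 all 3 libraries had such markers above 3000 CPM and shares on both sides of the GFP libraries. The part of these markers in the share was not tested.

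**Figure D3:**
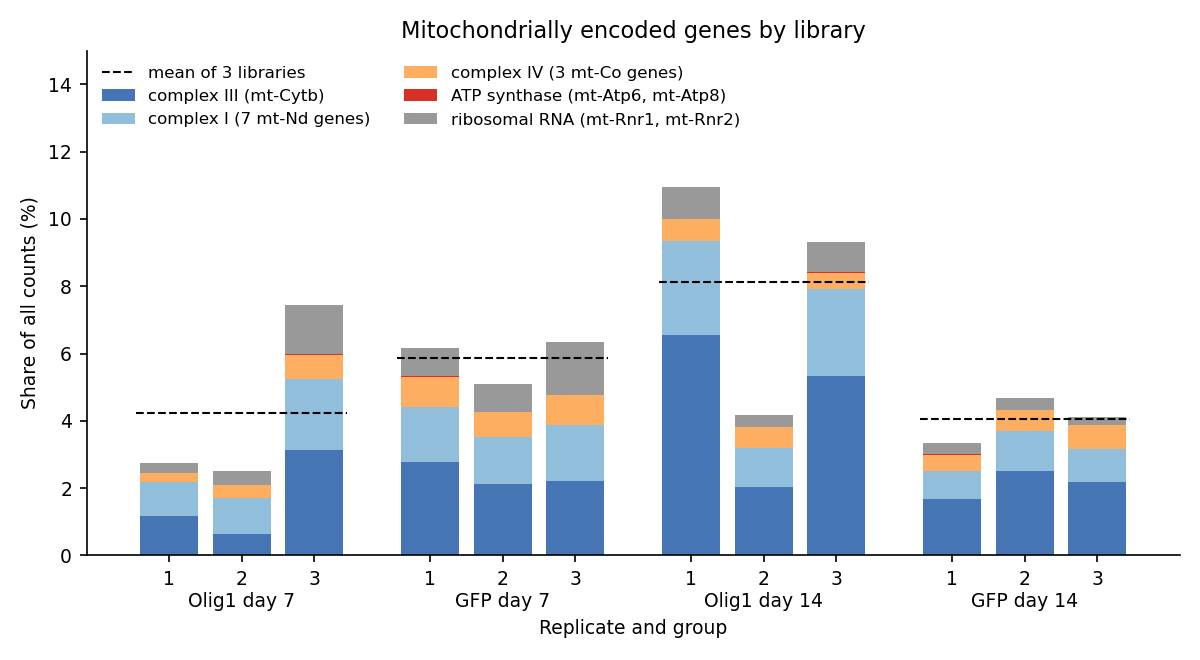
Share of all counts on mitochondrially encoded genes in each library, stacked by the complex the gene belongs to; dashed lines are means of 3 libraries. The shares run from 2.51% in Olig1 day 7 replicate 2 to 10.9% in Olig1 day 14 replicate 1, and mt-Cytb is the largest piece in 11 of 12 libraries.

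At day 7, Olig1 libraries had less of 3 complex I and IV mRNAs in every library, but no member passed the test: 0 of 15 were called, where 0.227% of all 14985 tested genes were. edgeR's quasi-likelihood test had 1 member at an unadjusted p under 0.05, against 13.9% of all genes, and 0 were called by DESeq2 (1 unadjusted) or limma voom (5 unadjusted). DESeq2 called 6.73% of the 13823 genes to which it gave an adjusted p in this comparison, and limma voom called 2.87% of all genes; DESeq2 shares here are of genes with such a p. At an unadjusted p under 0.05, DESeq2 had 13.1% to 19.7% of all genes and limma voom 10.8% to 17.7% over the 6 comparisons. The log2 fold changes were negative for 10 members and positive for 5, with a median of −0.22, beside −0.03 over all genes tested. With each library scaled to its member total, 9 were positive and 6 negative. This scaling removes by construction what the members share, so here and below its splits cannot test a shared direction. mt-Cytb alone was 25.2% to 59.8% of that total, so its own value under this scaling is largely set by it. The CPM ranges did not overlap, with Olig1 lower, for mt-Co1, mt-Nd4 and mt-Nd5, 3 of 15 against 9.01% of all genes.

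mt-Nd5, a proton-pumping subunit of complex I, had 399, 118 and 465 CPM in Olig1 day 7 libraries and 681.1, 739 and 1391 CPM in GFP day 7 libraries. All Olig1 values lay below all GFP values (log2 fold change −1.46 ± 0.48 SE, edgeR adjusted p = 0.246). mt-Co1, the catalytic core of complex IV, had 2581, 3534 and 6692 CPM in Olig1 and 8818, 7185 and 8516 CPM in GFP libraries at day 7. The groups again did not overlap (log2 fold change −0.73 ± 0.40, edgeR adjusted p = 0.436), and without Olig1 day 7 replicate 1 the log2 fold change was −0.41. mt-Nd4, another proton-pumping subunit, had 908, 1481 and 2645 CPM in Olig1 and 3529, 3225 and 3257 CPM in GFP libraries at day 7, also without overlap (log2 fold change −0.78 ± 0.45, edgeR adjusted p = 0.460). With each library scaled to its member total, the log2 fold change was −0.90 for mt-Nd5 and −0.36 for mt-Co1.

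mt-Rnr1, the RNA of the small mitochondrial ribosomal subunit, had 217, 229.8 and 796 CPM in Olig1 day 7 libraries and 647, 675 and 1490.4 CPM in GFP day 7 libraries. The highest Olig1 library overlapped with GFP (log2 fold change −1.05 ± 0.56, edgeR adjusted p = 0.420). Its log2 fold change was −1.64 without Olig1 day 7 replicate 3 and −0.62 without GFP day 7 replicate 3. The most abundant member, mt-Cytb, had 11815, 6328 and 31379.6 CPM in Olig1 and 27842, 21104 and 22083 CPM in GFP libraries at day 7. One Olig1 library was above all GFP libraries and the others below (log2 fold change −0.46 ± 0.45, edgeR adjusted p = 0.725); without Olig1 day 7 replicate 3 it was −1.11, without replicate 2 −0.23 and without replicate 1 −0.23, and scaling to the member total gave −0.14.

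At day 14 the fold changes pointed the other way for most members, again without a call: 0 of 15 passed the edgeR test, where 0.04% of all genes did. At an unadjusted p under 0.05 there were 5 members, against 10.4% of all genes, and DESeq2 and limma voom called 0 (2 and 5 unadjusted), where they called 5.54% and 0.367% of all genes. The log2 fold changes were positive for 14 members and negative for mt-Co1, with a median of 1.06, beside 0.09 over all genes tested. The CPM ranges did not overlap, with Olig1 higher, for mt-Rnr2, mt-Nd1, mt-Nd2, mt-Nd5, mt-Atp6 and mt-Nd3, 6 of 15 against 7.78% of all genes. CPM is without TMM scaling, whose factors were 0.915 for Olig1 day 14 replicate 2 and 0.722 for GFP day 14 replicate 3. With TMM factors applied, mt-Nd1 and mt-Nd5 overlap. These members share the scaling of each library, and with each library scaled to its member total the split was 8 positive to 7 negative.

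mt-Nd2, a complex I subunit, had 3889.9, 1418 and 3299 CPM in Olig1 day 14 libraries and 679, 1044 and 788 CPM in GFP day 14 libraries. Every Olig1 library lay above every GFP library (log2 fold change 1.73 ± 0.51, edgeR adjusted p = 0.438). Without a filter on low counts the log2 fold change was 1.70 and the edgeR adjusted p 0.049984, in a fit that called 0.0919% of all genes. mt-Nd1 had 16940.4, 7202 and 15504 CPM in Olig1 and 4517, 6911 and 6005 CPM in GFP libraries at day 14 (log2 fold change 1.12 ± 0.38, edgeR adjusted p = 0.438). mt-Rnr2, the RNA of the large mitochondrial ribosomal subunit, had 8614, 3301 and 8373 CPM in Olig1 and 3169.7, 3222 and 2371 CPM in GFP libraries at day 14. For both, Olig1 replicate 2 lay just above the GFP range and the other Olig1 libraries far above it (mt-Rnr2 log2 fold change 1.19 ± 0.50, edgeR adjusted p = 0.438). Scaling each library to its member total, which by construction removes what the members share, gave 0.77 for mt-Nd2, 0.21 for mt-Nd1 and 0.17 for mt-Rnr2.

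mt-Cytb had 65437, 20359 and 53410.0 CPM in Olig1 day 14 libraries and 16708, 24936 and 21929 CPM in GFP day 14 libraries. Here Olig1 replicate 2 fell within the GFP range (log2 fold change 1.06 ± 0.45, edgeR adjusted p = 0.438; 0.086 with each library scaled to its member total). mt-Co1 stood apart from the rest, with 5678, 5653 and 4419.6 CPM in Olig1 and 4422, 5952 and 6825 CPM in GFP libraries at day 14. Those groups overlapped (log2 fold change −0.21 ± 0.40, edgeR adjusted p = 1). The remaining complex IV members, mt-Co2 and mt-Co3, and both ATP synthase members had positive log2 fold changes of 0.46 to 1.42 and edgeR adjusted p-values of 0.452 or above.

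**Figure D4:**
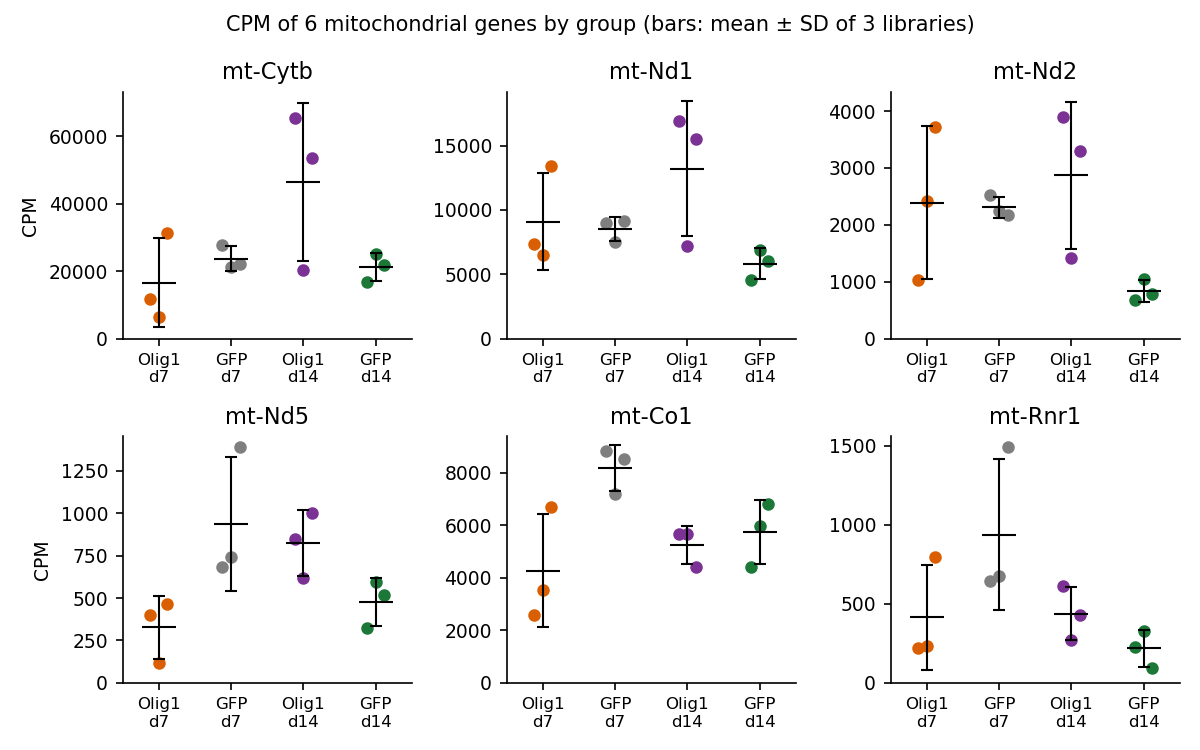
CPM of 6 members in the 4 groups; points are libraries, bars the mean ± SD of 3. mt-Nd5 and mt-Co1 of Olig1 day 7 lie below GFP day 7 without overlap, and mt-Nd1, mt-Nd2 and mt-Nd5 of Olig1 day 14 lie above GFP day 14 without overlap.

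Over the mean of both days, 0 of 15 members were called by edgeR, where 0.654% of all genes were, and 2 were under an unadjusted p of 0.05, against 14.9%. DESeq2 and limma voom called 0, with 2 unadjusted each, where they called 8.22% and 3.07% of all genes. The 2 were mt-Nd2 (log2 fold change 1.02 ± 0.36, edgeR adjusted p = 0.177) and mt-Nd1 (0.69 ± 0.27, edgeR adjusted p = 0.230), and mt-Co1 came next with a negative value (−0.47 ± 0.28, edgeR adjusted p = 0.467). The value of mt-Nd1 was 0.45 with each library scaled to its member total, and that of mt-Co1 was −0.31 without Olig1 day 7 replicate 1, −0.28 without GFP day 14 replicate 3 and −0.71 with limma voom. Without a filter on low counts, mt-Nd2 was called with a log2 fold change of 1.00 and an edgeR adjusted p of 0.0421, in a fit that called 1.6% of all genes.

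The difference between the days in the Olig1 effect was tested as an interaction. It was positive for all 15 members, with a median of 0.86 log2 units beside 0.07 over all genes, and scaling to the member total gave 7 positive and 8 negative. edgeR called 0 of 15 members and 0.0% of all genes. At an unadjusted p under 0.05 there were 5 members, against 9.9% of all genes; DESeq2 and limma voom called 0 (2 and 8 unadjusted), where they called 3.89% and 0.0% of all genes. The smallest p-values belonged to mt-Nd5 (2.18 ± 0.68, edgeR adjusted p = 0.341), mt-Rnr1 (2.12 ± 0.79, edgeR adjusted p = 0.387) and mt-Nd4 (1.58 ± 0.63, edgeR adjusted p = 0.427). With each library scaled to its member total the value was 0.84 for mt-Nd5 (edgeR adjusted p = 0.711), 0.82 for mt-Rnr1 (edgeR adjusted p = 0.723) and 0.20 for mt-Nd4 (edgeR adjusted p = 0.954).

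**Figure D5:**
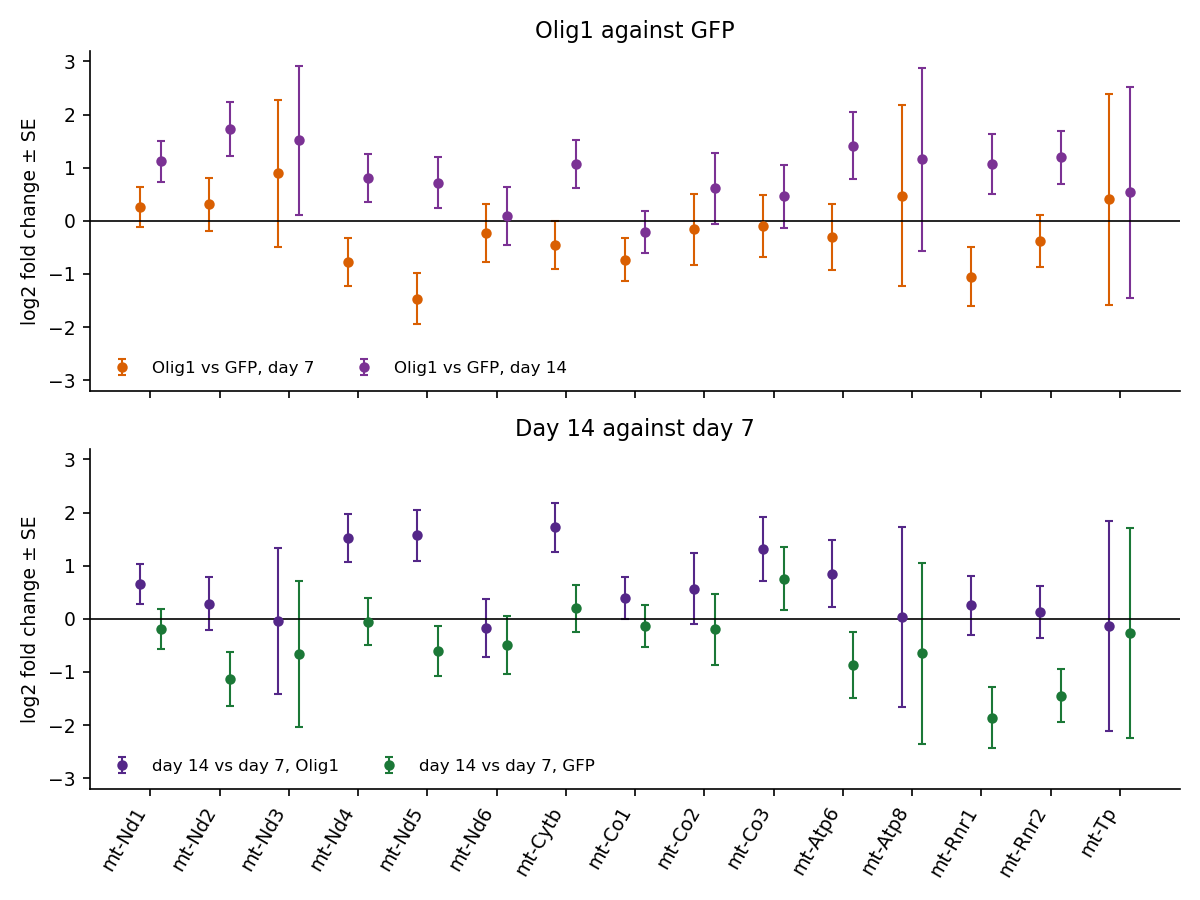
Log2 fold changes (edgeR, error bars SE) of the 15 tested members; the upper panel gives Olig1 against GFP at each day and the lower panel day 14 against day 7 within each virus. At day 14 all values but that of mt-Co1 are positive in the upper panel, and in GFP 13 of 15 are negative in the lower panel; no member was called.

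Between day 14 and day 7 the GFP libraries differed most in the rRNAs. mt-Rnr1 had 227, 330.1 and 94.7 CPM in GFP day 14 libraries, below the 647, 675 and 1490.4 CPM of GFP day 7 (log2 fold change −1.86 ± 0.57, edgeR adjusted p = 0.442). mt-Rnr2 had 3169.7, 3222 and 2371 CPM in GFP day 14 and 7806, 7684 and 14140.2 CPM in GFP day 7 libraries (−1.45 ± 0.50, edgeR adjusted p = 0.442). mt-Nd2 followed with 679, 1044 and 788 CPM at day 14 and 2516, 2242 and 2169 CPM at day 7 (−1.13 ± 0.51, edgeR adjusted p = 0.460). None of the 3 overlapped between days. In this comparison 9 of 15 members were lower in CPM at day 14 without overlap, against 10.5% of all genes, both without TMM scaling. TMM factors ran from 0.722 in GFP day 14 replicate 3 to 1.25 in GFP day 7 replicate 1. With TMM factors applied, mt-Nd1, mt-Co1, mt-Nd3, mt-Nd4 and mt-Nd5 overlap between days, so their separation depends on the scaling. The log2 fold changes were negative for 13 members and positive for 2, and 10 were negative with each library scaled to its member total. edgeR called 0 of 15 members and 0.0% of all genes, with 3 members unadjusted against 10.3% of all genes, and DESeq2 and limma voom called 0 (2 unadjusted each), where they called 4.63% and 0.113% of all genes.

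In Olig1 libraries the largest day differences were in mt-Cytb, mt-Nd5 and mt-Nd4. mt-Cytb had 65437, 20359 and 53410.0 CPM in Olig1 day 14 and 11815, 6328 and 31379.6 CPM in Olig1 day 7 libraries, with overlap (log2 fold change 1.72 ± 0.46, edgeR adjusted p = 0.371). mt-Nd5 had 849, 618 and 1004 CPM at day 14 and 399, 118 and 465 CPM at day 7 (1.57 ± 0.48, edgeR adjusted p = 0.371). It was the single member without overlap in CPM, 1 of 15 against 5.55% of all genes, both without TMM scaling. mt-Nd4 had 6007, 2193 and 5639 CPM at day 14 and 908, 1481 and 2645 CPM at day 7 (1.52 ± 0.45, edgeR adjusted p = 0.371). With TMM factors applied, mt-Nd4 also lies without overlap between the days, so its overlap depends on the scaling. edgeR called 0 of 15, where 0.0334% of all genes were called, and 4 were unadjusted against 11.8% of all genes. DESeq2 called 0 (3 unadjusted), where it called 4.64% of all genes. limma voom called mt-Nd4 (1.94, adjusted p = 0.0203) and mt-Cytb (1.97, adjusted p = 0.0486), 2 of 15 where it called 2.09% of all genes, and edgeR without a filter called mt-Nd4, where it called 0.236%. With each library scaled to its member total the edgeR log2 fold changes were 0.59 for mt-Cytb, 0.39 for mt-Nd5 and 0.40 for mt-Nd4 (lowest edgeR adjusted p of the 3 = 0.529). Both day comparisons share their groups with the Olig1 comparisons above.

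The make-up of the mitochondrial counts differed between the days in both viruses. The rRNAs took 8.44%, 8.58% and 9.46% of member counts in Olig1 day 14 and 11.04%, 16.9% and 19.8% in Olig1 day 7 libraries. They took 10.2%, 7.59% and 5.98% in GFP day 14 and 13.7%, 16.4% and 24.6% in GFP day 7 libraries, so day 14 lay below day 7 without overlap for both viruses. mt-Cytb took 59.8%, 48.9% and 57.4% in Olig1 day 14 and 43.0%, 25.2% and 42.1% in Olig1 day 7 libraries. Its share was 49.99%, 53.3% and 53.2% in GFP day 14 and 45.2%, 41.3% and 34.8% in GFP day 7 libraries, higher at day 14 without overlap for both viruses. For a gene's counts relative to the member total, 17.8% of all genes were lower and 2.71% higher at day 14 without overlap in Olig1 libraries, and 6.69% were lower and 7.74% higher in GFP libraries. CT010467.1, a nuclear locus of cytoplasmic rRNA sequence, was lower at day 14 in both viruses as a share of all counts. It held 0.0817% to 0.137% of all counts in Olig1 day 14, 0.678% to 2.70% in Olig1 day 7, 0.0633% to 0.0694% in GFP day 14 and 0.792% to 1.24% in GFP day 7 libraries. On the same scale, the mitochondrial rRNAs overlapped between the Olig1 days, with 0.357% to 0.923% at day 14 and 0.303% to 1.47% at day 7. In GFP they did not overlap, with 0.247% to 0.355% at day 14 and 0.836% to 1.56% at day 7. The part of CT010467.1 in the rRNA values was not tested. The labels speak of batches of libraries without assigning them, so batch and group cannot be told apart.

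Between viruses, mt-Nd1 was the member whose share of mitochondrial counts separated at both days. It took 26.6%, 26.0% and 18.0% in Olig1 day 7 and 14.54%, 14.6% and 14.4% in GFP day 7 libraries, higher in Olig1 without overlap, where 12.4% of all genes were higher relative to the member total. At day 14 it took 15.5%, 17.3% and 16.7% in Olig1 and 13.5%, 14.8% and 14.6% in GFP libraries, again without overlap, against 3.3% of all genes. mt-Nd2 joined it at day 14 with 3.56%, 3.40% and 3.55% in Olig1 and 2.03%, 2.23% and 1.91% in GFP libraries. For mt-Co1 the shares overlapped at both days, with 5.19%, 13.6% and 4.75% in Olig1 day 14 and 13.2%, 12.7% and 16.6% in GFP day 14 libraries. The low values were those of replicates 1 and 3, the Olig1 day 14 libraries with the lower summed level of ganglion cell markers. At day 7 mt-Co1 took 9.40%, 14.1% and 8.99% in Olig1 and 14.3%, 14.1% and 13.4% in GFP libraries. All Olig1 day 7 libraries had a high summed level of these markers, at least 3286 CPM. The part of these markers in the mt-Co1 share was not tested.

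The values of the nuclear partners of the respiratory chain are given beside those of the members, with no test between them. Of 71 nuclear subunits of complexes I, III and IV and the ATP synthase, 66 had positive and 5 negative log2 fold changes in Olig1 against GFP at day 7 (median 0.92, beside −0.22 over the 15 mitochondrial members and −0.03 over all genes). edgeR called 0 of them at day 7 (28 unadjusted) and limma voom called 0 (10 unadjusted), and DESeq2 called 5 of 71, all higher in Olig1 (29 unadjusted), a share near its 6.73% of all genes. The 5 were Uqcrq, Cox7b, Ndufs4, Atp5g3 and Atp5j. Without a filter on low counts edgeR called Uqcrq and Cox7b, in a fit that called 0.871% of all genes. The smallest edgeR p belonged to Uqcrq, a complex III subunit, with 797 ± 514 CPM in Olig1 day 7 and 193 ± 51.7 CPM in GFP day 7 libraries (SD, n = 3 each; log2 fold change 2.50 ± 0.63, edgeR adjusted p = 0.136). At day 14, 46 were positive and 25 negative (median 0.18, beside 1.06 over the mitochondrial members), with 0 called by edgeR (1 unadjusted), DESeq2 (1) or limma voom (2). In GFP, day 14 against day 7, 70 were positive and 1 negative (median 0.88, beside −0.49 over the mitochondrial members), with 0 called by edgeR (24 unadjusted) or limma voom (25) and 1 of 71, Ndufv2, by DESeq2 (11), below its 4.63% of all genes. In Olig1, day 14 against day 7, 42 were positive and 29 negative (median 0.19, beside 0.39 over the mitochondrial members), with 0 called by edgeR (4 unadjusted), DESeq2 (5) or limma voom (14). Over the mean of both days, 62 were positive and 9 negative for Olig1 against GFP (median 0.59, beside 0.30 over the mitochondrial members), with 0 called by edgeR (18 unadjusted) or limma voom (11) and 1, Ndufv1, by DESeq2, lower in Olig1 (16). For the interaction, 10 were positive and 61 negative (median −0.74, beside 0.86 over the mitochondrial members), with 0 called by edgeR (11 unadjusted), DESeq2 (9) or limma voom (4).

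Nuclear genes for mitochondrial transcription, replication, RNA processing and translation were less abundant and gave wide errors. Of 45 tested, 17 were positive and 28 negative in Olig1 against GFP at day 7 (median −0.51) and 25 were positive and 20 negative at day 14 (median 0.25). edgeR called 0 at both days (4 unadjusted at day 7 and 3 at day 14), limma voom called 0 (3 at day 7 and 4 at day 14) and DESeq2 called 2 at day 7, Pde12 higher and Pnpt1 lower in Olig1, and 1 at day 14, Ppargc1b, lower in Olig1 (4 unadjusted at each day). These were 2 and 1 of the 44 with a DESeq2 adjusted p, below its 6.73% and 5.54% of all genes. Tfam, which packages mitochondrial DNA and starts its transcription, had a log2 fold change of −1.84 ± 1.55 at day 7 (edgeR adjusted p = 0.659), and Polrmt, the mitochondrial RNA polymerase, had 2.36 ± 2.08 (edgeR adjusted p = 0.683).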

How the data were processed

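What was deposited were raw counts per Ensembl gene, 1 table per sample and 1 for the series, made by the authors. The submitters' processing notes name FastQC, HISAT2, HTSeq and the build mm10. Per the labels' protocols, CD90.2 beads and fluorescence picking gave the cells, and the SMART-Seq HT kit with 20 PCR cycles gave the cDNA. Tool versions, annotation release, strand setting and the treatment of reads with several alignments: not given in the sources used here. Symbols and coordinates came from GENCODE M21 on GRCm38, which matched 54165 of 54232 genes. The deposited per-sample tables of 4 libraries ended in mid-line and lacked all 37 members, so the member counts of Olig1 day 7 replicate 2, GFP day 14 replicates 1 and 3 and Olig1 day 14 replicate 3 rest on the series table alone. In genes present in both sources, 0 counts differed.

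CPM is relative to all counts of a library, without TMM scaling, and statements on the overlap of CPM ranges rest on it. Members and all other genes were tested together in edgeR 4.0.16 under R 4.3.3, by the quasi-likelihood test with robust dispersions, TMM scaling and filterByExpr (minimum count 10), the 12 libraries in 1 fit of 4 groups. A call needed an adjusted p (Benjamini-Hochberg, 14985 genes) under 0.05. SE values belong to edgeR log2 fold changes, and the procedure was tested on simulated counts. Copies were found with BLAST+ 2.17.0 and by exact 100-base windows among annotated transcripts. Python 3.11.15 with pandas 2.3.3 made the tables and matplotlib 3.10.9 the figures. The members, the lists of nuclear genes and markers, and the tests were chosen with earlier results of these data known. Members were named per library if they were the highest or lowest, on the light strand, an rRNA, or among the 3 smallest p-values of an Olig1 comparison, and mt-Nd4 was added after its values were seen. From each list of nuclear genes the 2 smallest p-values per comparison were eligible, and genes that DESeq2 or the fit without a filter called were named after their values were seen. Alternatives were other scalings, DESeq2 1.42.0, limma 3.58.1 voom with sample weights, other filters, a fit of the compared groups alone, a replicate block, leaving out each library, and, chosen after seeing the data, summing the copies into the members. Same-group Spearman correlations were 0.604 to 0.829.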

Additional observations from a re-analysis of the deposited data

Results flagged for a closer look

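mt-Nd5 was picked from the tested members by its values. It was the member whose difference between Olig1 and GFP took opposite directions at the 2 days in every library. Of all genes tested, 9.01% were lower in Olig1 at day 7 without overlap in CPM, and 7.78% were higher at day 14. The share of all genes that did both was not counted, so the pattern of mt-Nd5 cannot be set against a background. In CPM, without TMM scaling, all 3 Olig1 day 7 libraries lay below all 3 GFP day 7 libraries. All 3 Olig1 day 14 libraries lay above all 3 GFP day 14 libraries, with 618 CPM in Olig1 replicate 2 and 593 in GFP replicate 2 as the nearest. TMM factors were 0.915 for Olig1 day 14 replicate 2 and 0.722 for GFP day 14 replicate 3, which had 515 CPM. With these factors applied the day 14 groups overlap, so the separation at day 14 depends on the scaling. The difference itself, tested as an interaction, was 2.18 ± 0.68 log2 units (SE) with an edgeR adjusted p of 0.341, which misses the threshold of 0.05. Over 22 alternatives it ran from 0.84 to 2.44 with adjusted p-values of 0.118 to 0.711, the lowest value with each library scaled to its member total.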

How the results depend on the processing

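No member was called in any of the 6 comparisons, and 108 of 112 recomputed member counts stayed at 0. The exceptions were 1 call without a filter on low counts for Olig1 against GFP at day 14 (mt-Nd2), 1 over the mean of both days (mt-Nd2) and 1 for day 14 against day 7 in Olig1 (mt-Nd4), and 2 with limma voom in that last comparison (mt-Nd4, mt-Cytb). Of the nuclear lists, DESeq2 called 7 genes for Olig1 against GFP at day 7, 1 at day 14, 4 over the mean of both days, 1 for the interaction, 2 for day 14 against day 7 in GFP and 2 in Olig1, out of 71 subunits and 44 expression factors with an adjusted p, where it called 3.89% to 8.22% of all genes. Without a filter 2 were called at day 7 and 1 over both days, and leaving out single libraries at day 7 gave 0 to 1. mt-Cytb, day 14 against day 7 in GFP (log2 fold change 0.19, not called), turned to −0.16 with library totals in place of TMM and to −0.032 without GFP day 14 replicate 3, with 0.42 as the highest value. The cause was not tested. The mean share in GFP day 7 was 4.79% for the mRNAs alone and 5.12% over counts of protein-coding genes. Scaling each library to its member total shifted the median of all genes by 0.57, −0.74 and −1.33 log2 units for day 7, day 14 and the interaction, and by 0.16 in GFP and −1.13 in Olig1 between days. Library totals without TMM shifted it by −0.32 in GFP and −0.20 in Olig1 between days and by 0.13 for the interaction. The replicate block called 0 members in each comparison. Same-numbered libraries deviated together with correlations of −0.0657 to 0.0441 over 18 pairs, so the numbers were not taken as pairs, and no other member call changed with the block. The common biological coefficient of variation over all genes was 1.351, and the part of depth in the lack of calls was not tested.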
